A study of Mus musculus with 12 samples.

Results

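MHC class I and antigen processing was represented by 9 genes, chosen by symbol: the heavy chains H2-K1 and H2-D1, the light chain B2m, the peptide transporter subunits Tap1 and Tap2, the loading chaperone Tapbp, the immunoproteasome subunits Psmb8 and Psmb9, and the regulator Nlrc5. All 9 were found among the 54227 gene symbols of the deposited table, and all 9 were among the 16128 genes kept by a filter on low values (an average of 10 or more normalised counts across the 12 libraries). The cells came from dissociated livers of C57Bl/6 mice that carried the Sox9EGFP transgene and had been fasted for 16 h. EGFP in this reporter follows the regulatory sequence of Sox9, a transcription factor of bile duct cells, and cells were sorted by brightness into 4 gates. These populations are named neg, sub, low and high after the labels' GFPneg, GFPsublow, GFPlow and GFPhigh, with 3 libraries each from 12000 cells. All 4 populations carried the transgene and were fasted, no mouse without it was sequenced here, and the sex and age of the mice are not given in the sources used here. The labels do not say whether the 3 libraries of a population came from separate mice, so the p-values measure the spread between these libraries.

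Class I molecules display peptides from inside the cell to CD8 T cells. A heavy chain pairs with beta 2-microglobulin. Peptides are cut by the proteasome, whose catalytic subunits can be exchanged for interferon-inducible ones, carried into the endoplasmic reticulum by the TAP transporter and loaded with the help of tapasin. In the liver, sinusoidal endothelial cells are known for abundant class I and for presenting antigen to passing T cells, whereas class I on hepatocytes and bile duct cells is known to rise with interferon. The series compared 3 EGFP-positive populations and EGFP-negative cells, and the question asked here is how evenly this pathway was transcribed across them.

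The heavy chains were abundant in all 4 populations, with summed levels that overlapped between every pair. The summed normalised count of the heavy chains H2-K1 and H2-D1 was 12963 ± 2419 in neg and 10739 ± 5201 in sub, and 9704 ± 1123 in low and 9988 ± 2011 in high (mean ± SD, n = 3 each). None of the 9 members passed the test in any of the 6 comparisons of populations or in the test for any difference among the 4 (limma across all 16128 genes, Benjamini-Hochberg adjusted p under 0.05). Between 0 and 4.69% of all genes passed in each comparison, so a count of 0 of 9 lies near that background and sets the members apart from no other genes. Over the same range of sorts the summed biliary markers went from 187 ± 202 in neg to 66708 ± 3733 in high, and the summed endothelial markers from 176020 ± 31069 to 982 ± 473 (n = 3 each). The populations therefore differed in cell type, and a difference between populations and a difference between cell types cannot be told apart in these bulk libraries. Nor can fewer cells of a type be told apart from less RNA per cell.

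**Figure D1:**
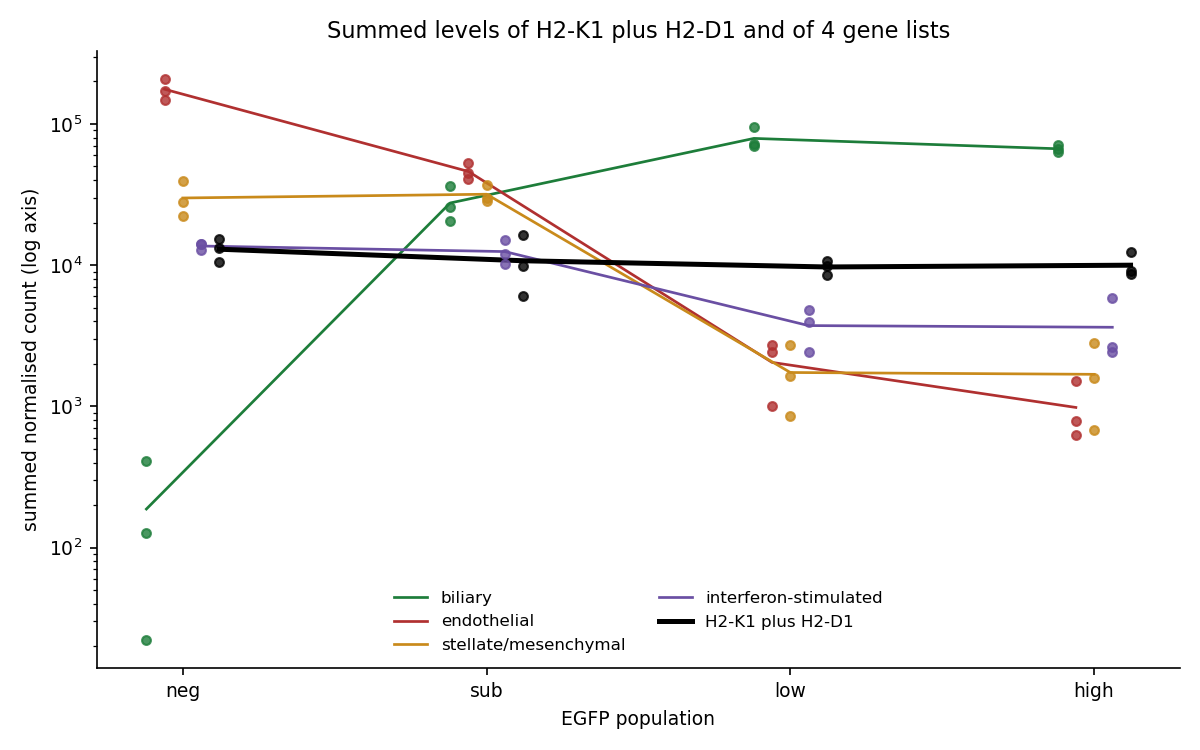
Summed normalised counts on a log axis for H2-K1 plus H2-D1 (black) and for 4 gene lists in the 4 populations; points are the 12 libraries and lines join the means of 3. The heavy-chain line stays between 9704 and 12963 while the biliary line goes from 187 in neg to 78965 in low and 66708 in high and the endothelial line drops from 176020 to 982.

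Sequences upstream of the members are shown first, since H2-K1 and H2-D1 resemble each other closely in sequence. RefSeq windows of 300 bases (250 before to 50 after the start, build GRCm38.p6) were matched by symbol for 7 of the 9 members, with 8 windows in all because H2-K1 has 2 starts. The windows were searched on both strands for GAAANNGAA (the half-sites of the interferon-stimulated response element), TTCNNNGAA (the gamma-activated site), the NF-kB consensus and CCAAT (the box bound by NF-Y). The heavy-chain and light-chain windows are printed because they hold the NF-kB consensus, and the Tap1 window because most of it is shared with Psmb9. Capitals mark the matches.
H2-K1, chr17:34000298-34000597, minus strand: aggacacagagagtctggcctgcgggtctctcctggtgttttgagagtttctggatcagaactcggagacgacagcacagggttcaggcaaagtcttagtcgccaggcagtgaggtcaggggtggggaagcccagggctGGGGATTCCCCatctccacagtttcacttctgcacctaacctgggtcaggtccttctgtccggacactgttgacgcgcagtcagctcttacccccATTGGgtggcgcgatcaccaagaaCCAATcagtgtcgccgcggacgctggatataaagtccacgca
H2-D1, chr17:35262844-35263143, plus strand: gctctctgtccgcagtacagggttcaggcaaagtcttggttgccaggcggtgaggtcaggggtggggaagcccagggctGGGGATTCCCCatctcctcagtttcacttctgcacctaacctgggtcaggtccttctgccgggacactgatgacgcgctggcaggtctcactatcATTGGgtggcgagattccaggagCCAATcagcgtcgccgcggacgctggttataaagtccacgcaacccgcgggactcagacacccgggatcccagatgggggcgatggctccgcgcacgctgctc
B2m, chr2:122147437-122147736, plus strand: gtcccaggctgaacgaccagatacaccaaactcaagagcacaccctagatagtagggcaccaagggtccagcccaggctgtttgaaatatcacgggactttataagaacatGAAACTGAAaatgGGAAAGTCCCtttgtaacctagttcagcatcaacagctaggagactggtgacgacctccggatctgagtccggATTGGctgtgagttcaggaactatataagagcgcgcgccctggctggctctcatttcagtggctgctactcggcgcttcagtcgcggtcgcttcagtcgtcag
Tap1, chr17:34187306-34187605, plus strand: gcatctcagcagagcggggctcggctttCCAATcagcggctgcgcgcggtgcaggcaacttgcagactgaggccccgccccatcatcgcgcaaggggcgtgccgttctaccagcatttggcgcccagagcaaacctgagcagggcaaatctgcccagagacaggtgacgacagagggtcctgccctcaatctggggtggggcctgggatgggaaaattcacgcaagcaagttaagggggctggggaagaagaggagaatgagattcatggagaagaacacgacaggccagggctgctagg

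H2-K1 and H2-D1 shared one run, GGGGATTCCCC, in which overlapping matches on both strands gave 4 hits to the NF-kB consensus at a single place. It was followed in each window by 2 CCAAT boxes on opposite strands. Aligned to each other, the windows were identical at 206 of 228 columns (90.4%). The B2m window held GAAACTGAA, the NF-kB match GGAAAGTCCC on the minus strand and 1 CCAAT box. Among all 32851 promoter windows of the same length, 8.56% held GAAANNGAA, 8.46% the NF-kB consensus, 8.3% TTCNNNGAA and 37.4% CCAAT. Tap1 and Psmb9 lie head to head, and their windows shared 275 bases, chr17:34187306-34187580, with 1 CCAAT box. Of the members not printed, Tapbp had 2 CCAAT boxes and Psmb8 had 1 match to TTCNNNGAA, TTCCCAGAA. Neither heavy-chain window matched GAAANNGAA. Only these exact patterns were searched, so a window without a match may still hold another form of the same element. These matches describe letters in the windows and are not sites shown to be bound.

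H2-K1 encodes the K heavy chain of class I and spans 33996017 to 34000347 of chromosome 17, minus strand (gene ENSMUSG00000061232.16, 8 exons, GENCODE M21 on GRCm38). Its normalised counts were 6697, 3720.2 and 4868.7 in neg, 4491.1, 4440 and 7673.4 in sub, 4819.5, 2106.3 and 4100.4 in low and 5451.5, 5841.6 and 5678.7 in high. The 3 high libraries lay close together and above all 3 low libraries, while every other pair of populations overlapped. The difference of high from low was 0.71 ± 0.36 on the log2(normalised count + 1) scale (SE), with a 95% interval of -0.06 to 1.47 and an adjusted p of 1 in limma. Such a separation of libraries, in either direction, was met by 7.34% of all tested genes in that comparison.

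H2-D1 encodes the D heavy chain and spans 35262730 to 35267499 of chromosome 17, plus strand (ENSMUSG00000073411.11, 8 exons). Its counts were 8584.5, 6734.8 and 8284.7 in neg, 5366.6, 1596 and 8651 in sub, 5113.4, 6377.5 and 6594.8 in low and 3573.8, 2798.5 and 6620.4 in high. The neg libraries lay above all low and all high libraries, and the sub libraries spanned the whole range, with the lowest value of the 12 in sub 2 and the highest in sub 3. On the log2 scale high differed from neg by -0.95 ± 0.46 (95% interval -1.92 to 0.01, limma adjusted p = 0.312) and low from neg by -0.39 ± 0.46 (interval -1.35 to 0.58, adjusted p = 0.716).

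The heavy chains ranked 196 (H2-D1) and 248 (H2-K1) of the 16128 tested genes by mean level. Of the 31-base stretches in the annotated H2-K1 transcripts, 22.8% also occurred in another gene, and 26.9% did for H2-D1, each with the other as the main partner. The counting could therefore divide reads between them, and their separate values are less certain than their sum. Other class I heavy chains share stretches as well, for example H2-Q7 with 7.5% of those of H2-K1 and 8.1% of those of H2-D1. Reads could thus also move into or out of the sum. H2-K1 made up 38.8 ± 4.4% of the sum in neg and 55.4 ± 15.8% in sub, and 37.2 ± 11.9% in low and 58.1 ± 10.9% in high (n = 3 each). By library the share was 43.8, 35.6 and 37% in neg, 45.6, 73.6 and 47% in sub, 48.5, 24.8 and 38.3% in low, and 60.4, 67.6 and 46.2% in high. Sub libraries all lay above neg in this share, and so did high libraries, whereas low overlapped each of the other populations. No test was run on the share.

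**Figure D2:**
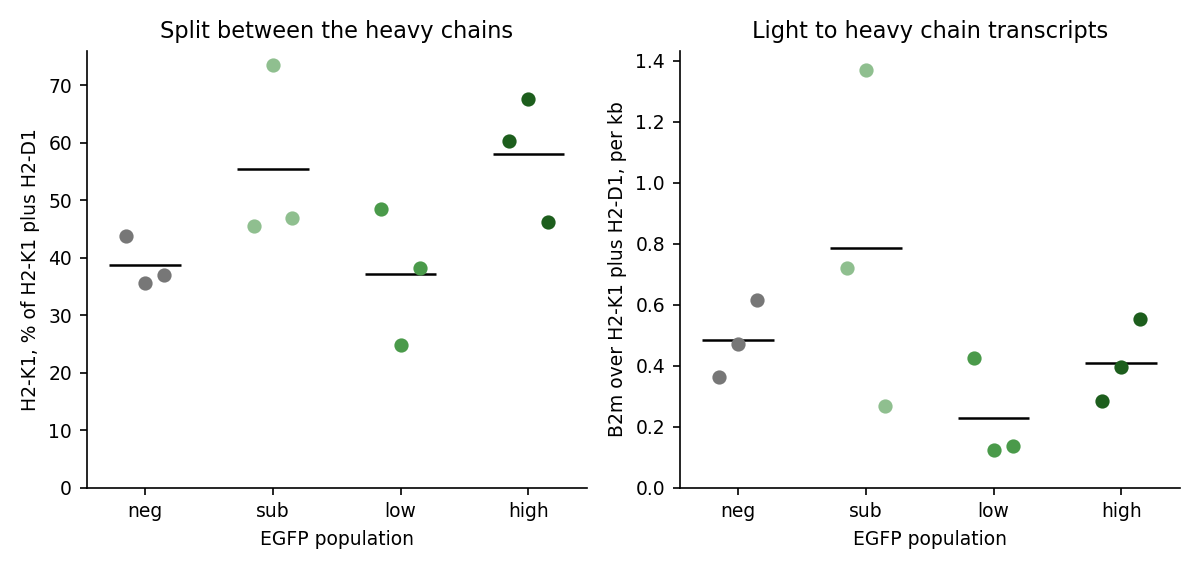
Left, H2-K1 as a percentage of H2-K1 plus H2-D1 in each library; right, B2m per kb of transcript over the summed heavy chains per kb. Points are the 12 libraries in 4 populations and bars the means of 3: the H2-K1 share ranges from 24.8% (low 2) to 73.6% (sub 2), and the light-chain ratio from 0.124 (low 2) to 1.37 (sub 2).

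Summed over both heavy chains, libraries of every pair of populations overlapped. The sum was 15281.5, 10455 and 13153.4 in neg, 9857.6, 6036 and 16324.4 in sub, 9933, 8483.7 and 10695.2 in low and 9025.3, 8640.1 and 12299.1 in high. The fitted difference from neg was -0.41 in low (95% interval -0.98 to 0.17) and -0.38 in high (-0.95 to 0.20), and high differed from low by 0.03 (-0.54 to 0.60), all on the log2 scale. Over the 6 comparisons the intervals lay between -0.98 and 0.60, so these data exclude neither equality nor a sum lower by nearly 1 on the log2 scale in low. The test for any difference among the populations gave an adjusted p of 0.734 (limma).

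B2m, the light chain without which heavy chains do not reach the cell surface, is a single-copy gene on chromosome 2 from 122147686 to 122153083, plus strand (ENSMUSG00000060802.8, 4 exons), and none of its 31-base stretches occurred elsewhere. Its counts were 2565.3, 2234.3 and 3681.7 in neg, 3301.6, 4122.8 and 2031.8 in sub, 1988.2, 462.2 and 664.1 in low and 1232.2, 1680.7 and 3166.5 in high. The 3 low libraries lay below every neg and every sub library, and high spanned the gap between them. B2m differed between low and neg by -1.70 ± 0.63 (95% interval -3.01 to -0.39, unadjusted p = 0.0137, adjusted p = 0.156) and between low and sub by -1.83 ± 0.63 (-3.14 to -0.52, 0.0087, 0.236) in limma. Neither passed the threshold after adjustment, and no other member in either comparison had an unadjusted p under 0.05. Library low 1, the highest of its group, decided the call against neg: without it the low to neg difference was -2.32 with an adjusted p of 0.0455, which passed. That between low and sub was then -2.45 with an adjusted p of 0.0708 and passed under none of the 23 alternatives.

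Per kb of transcript, the B2m level was 3287 ± 882 in neg and 3665 ± 1225 in sub, and 1207 ± 964 in low and 2356 ± 1177 in high (normalised counts per kb, n = 3). On that scale B2m stood at 0.484 ± 0.127 of the summed heavy chains in neg and 0.786 ± 0.554 in sub, and 0.229 ± 0.172 in low and 0.41 ± 0.136 in high. The ratio was 0.363, 0.472 and 0.616 in neg, 0.721, 1.37 and 0.267 in sub, 0.427, 0.124 and 0.136 in low, and 0.283, 0.396 and 0.553 in high. Libraries of low overlapped those of each other population in this ratio.

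Tapbp, or tapasin, bridges the heavy chain and the TAP transporter during loading and lies on chromosome 17 from 33915899 to 33929292, plus strand (ENSMUSG00000024308.15, 8 exons). Its counts were 2364.3, 1823.4 and 2689.8 in neg, 3182.9, 1992.1 and 2507.6 in sub, 1386.3, 1448.6 and 2679.3 in low and 1081.7, 893.4 and 1088.7 in high. The high libraries were the 3 lowest of the 12 and overlapped no other population. Tapbp in high differed from sub by -1.31 ± 0.55 (95% interval -2.45 to -0.16, unadjusted p = 0.028, adjusted p = 0.398) and from neg by -1.15 ± 0.55 (-2.30 to -0.01, 0.049, 0.303) in limma. DESeq2 on the recovered reads called the difference from sub, with a log2 fold change of -1.33 and an adjusted p of 0.0475, and edgeR did not call it. Within populations Tapbp was even: its pooled SD on the log2 scale was 0.355, and 2.57% of the 1788 tested genes with a mean within 2-fold of its own had a smaller one. An antisense gene, Gm19412, shares 22.1% of the 31-base stretches of Tapbp. Whether counting used strand is not given in the sources used here, so reads of the pair cannot be told apart.

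The transporter subunits were uneven from library to library. Tap1 (chromosome 17, 34187553 to 34197225, plus strand) stood at 29.02, 118.6 and 1594.6 in neg, 1050.9, 0 and 0 in sub, 199.6, 5.948 and 580.3 in low, and 0, 767.1 and 0 in high. Each population held at least 1 library over 500 and 1 under 50, so no direction can be read. Tap2 (chromosome 17, 34203527 to 34216321, plus strand) stood at 786.9, 242.1 and 1157 in neg, 67.8, 612.5 and 854.8 in sub, 205.6, 39.93 and 1278 in low and 382.5, 275.9 and 194.4 in high. All 6 pairs of populations overlapped for both genes. The Tap1 interval for low against neg ran from -7.73 to 5.84 and that of Tap2 from -4.59 to 1.68 on the log2 scale, with limma adjusted p-values of 0.975 and 0.672. Differences of several-fold in the transporter were thus not detectable at this spread. Tap2 overlaps 2 genes on the opposite strand, Gm15821 and Gm20496, which share 11.3% and 2.9% of its 31-base stretches.

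Listed zeros need care in these libraries. The housekeeping genes Hprt, Tbp, Pgk1 and Gusb were at 0 in 2 to 5 of the 12 libraries, and 68.3% of tested genes with a mean of at least 100 were at 0 in at least 1 library. A 0 for a member is therefore given as a listed value and not as absence of expression.

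The inducible proteasome subunits were listed at 0 in some libraries. Psmb8, which replaces Psmb5 in the immunoproteasome (chromosome 17, 34197721 to 34201454, plus strand), stood at 241.8, 1363.6 and 201.9 in neg, 596.2, 487.7 and 361.1 in sub, 0, 353.5 and 142.2 in low and 154.9, 44.47 and 0 in high. All 3 high libraries lay below all neg and all sub libraries, and the low libraries lay below sub. In limma the difference of high from sub was -4.62 ± 2.38 (95% interval -9.61 to 0.37, adjusted p = 0.523) and that of high from neg -4.40 ± 2.38 (-9.39 to 0.59, adjusted p = 0.385). Without high 3, listed at 0, these values were -2.49 and -2.27, and over all alternatives they ranged from -6.13 to -2.49 and from -5.91 to -2.27. Psmb8 overlaps the antisense gene Gm20496, which shares 13% of its 31-base stretches. Psmb9, which replaces Psmb6 (chromosome 17, 34181987 to 34187764, minus strand), stood at 0, 24.46 and 0 in neg, 5.159, 171.7 and 0 in sub, 160.3, 0 and 0.8219 in low, and 66.63, 0 and 0 in high. It was the least abundant member, ranking 13228 of 16128, at 0 in 6 of 12 libraries and with overlap between every pair of populations.

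Nlrc5 is the transactivator of class I genes, including B2m, Tap1 and Psmb9, and lies on chromosome 8 from 94434356 to 94527272, plus strand (ENSMUSG00000074151.13). Its counts were 629.4, 425.6 and 871.2 in neg, 445.1, 689.2 and 436.9 in sub, 191.5, 740 and 46.03 in low and 307.2, 1391.7 and 818.4 in high. The lowest values were those of low 3 and low 1, the highest was that of high 2, and every pair of populations overlapped. Low against neg gave -1.71 ± 1.22 (95% interval -4.26 to 0.84, limma adjusted p = 0.546) and high against low 1.90 ± 1.22 (-0.65 to 4.45, adjusted p = 1). These values rested on single libraries: without low 3 they were -0.71 and 0.90, without low 2 they were -2.70 and 2.89, and without high 1 the second was 2.50.

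**Figure D3:**
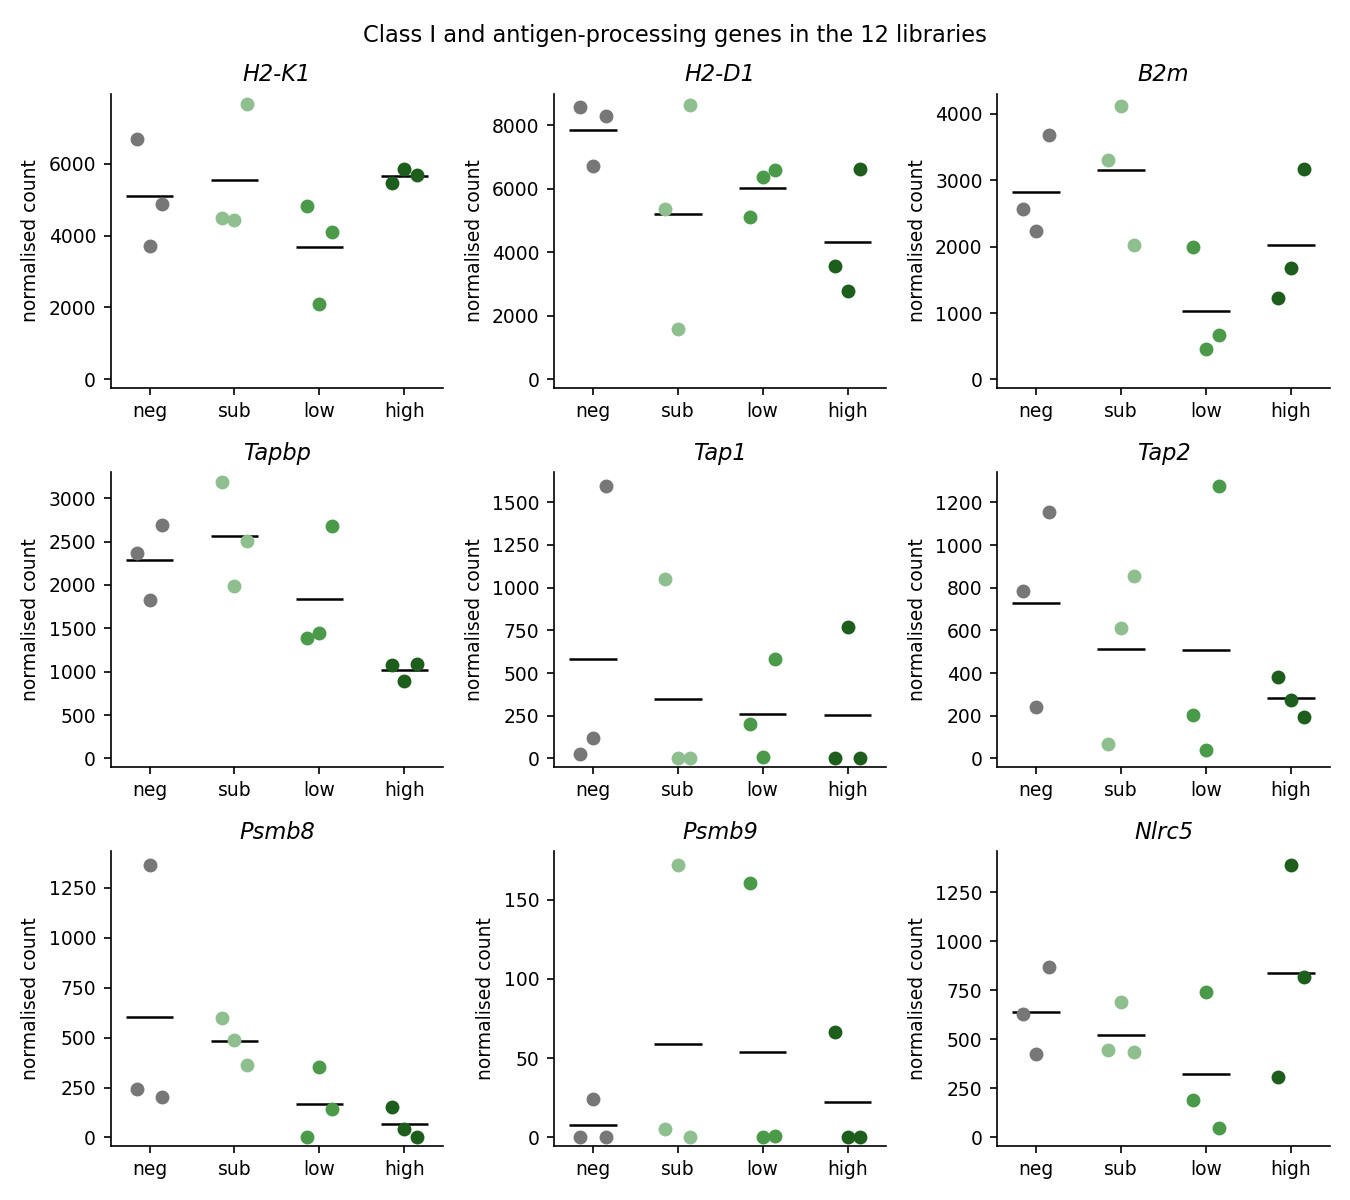
Normalised counts of the 9 genes, 1 panel each with its own linear axis; points are the 3 libraries of each population in replicate order and bars their means. The heavy chains, B2m and Tapbp stay above 0 in all 12 libraries, Tapbp is lowest in the 3 high libraries (893.4 to 1088.7), B2m in low 2 (462.2), and Tap1, Psmb8 and Psmb9 are listed at 0 in 4, 2 and 6 libraries.

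Ordered by their level per kb over the populations, B2m and the heavy chains stood highest, Tapbp came next, and the other members followed. In neg the means per kb were 3743 ± 472 for H2-D1, 3287 ± 882 for B2m, 3147 ± 927 for H2-K1 and 791 ± 151 for Tapbp. The first 3 of these did not differ beyond their spread. Tap2 and Nlrc5 stood at 212 ± 134 and 84.7 ± 29.4 per kb in neg, and in high at 82.6 ± 27.4 and 111 ± 72. All 9 members together took 0.194 ± 0.0346% of the normalised counts in neg and 0.165 ± 0.0401% in sub, and 0.124 ± 0.0206% in low and 0.131 ± 0.0217% in high.

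Across each comparison, the members' counts are set against those of all genes. In sub against neg limma called 1.19% of all tested genes and 0 of 9 members, none of which had an unadjusted p under 0.05 (1539 of the 16128 genes did). For low against neg the figure was 4.69% of genes and 0 of 9 members (1 at an unadjusted p under 0.05, B2m, against 2584 of all genes), and for high against neg also 4.69% and 0 of 9 (1 unadjusted, Tapbp, against 2640). Low against sub gave 0.744% of genes and 0 of 9 members (1 unadjusted, B2m, against 1637), and high against sub 0.986% and 0 of 9 (1 unadjusted, Tapbp, against 1653). In high against low limma called 0% of genes, 684 of which had an unadjusted p under 0.05, and 0 of 9 members, none of them unadjusted. edgeR called 34 genes and DESeq2 646 in that last comparison, none of them a member. The test for any difference called 4.23% of genes and 0 of 9 members (1 unadjusted, B2m, against 2397). Over the 6 comparisons edgeR called no member and DESeq2 called 1, Tapbp in high against sub, while edgeR called 1.93% and DESeq2 10.4% of the tests of all genes.

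Libraries of 2 populations failed to overlap for 0 of 9 members in sub against neg, where 9.68% of all tested genes met that description in either direction. The count was 2 of 9 in low against neg (background 16.9%), 3 of 9 in high against neg (18.8%), 2 of 9 in low against sub (11.7%), 2 of 9 in high against sub (13.1%) and 2 of 9 in high against low (7.34%). The members were H2-D1 and B2m in the first of these, H2-D1, Tapbp and Psmb8 in the second, B2m and Psmb8 in the third, Tapbp and Psmb8 in the fourth and H2-K1 and Tapbp in the last. With 9 members, these counts rest on 2 or 3 genes each. The median log2 difference over the members was 0.11 in sub against neg, -0.62 in low against sub, -0.57 in high against low, -0.94 in low against neg, -0.95 in high against neg and -0.27 in high against sub. Over all tested genes the medians were 0, 0, 0, 0, 0.13 and 0.20 in that order, and the comparisons with neg share the neg libraries.

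**Figure D4:**
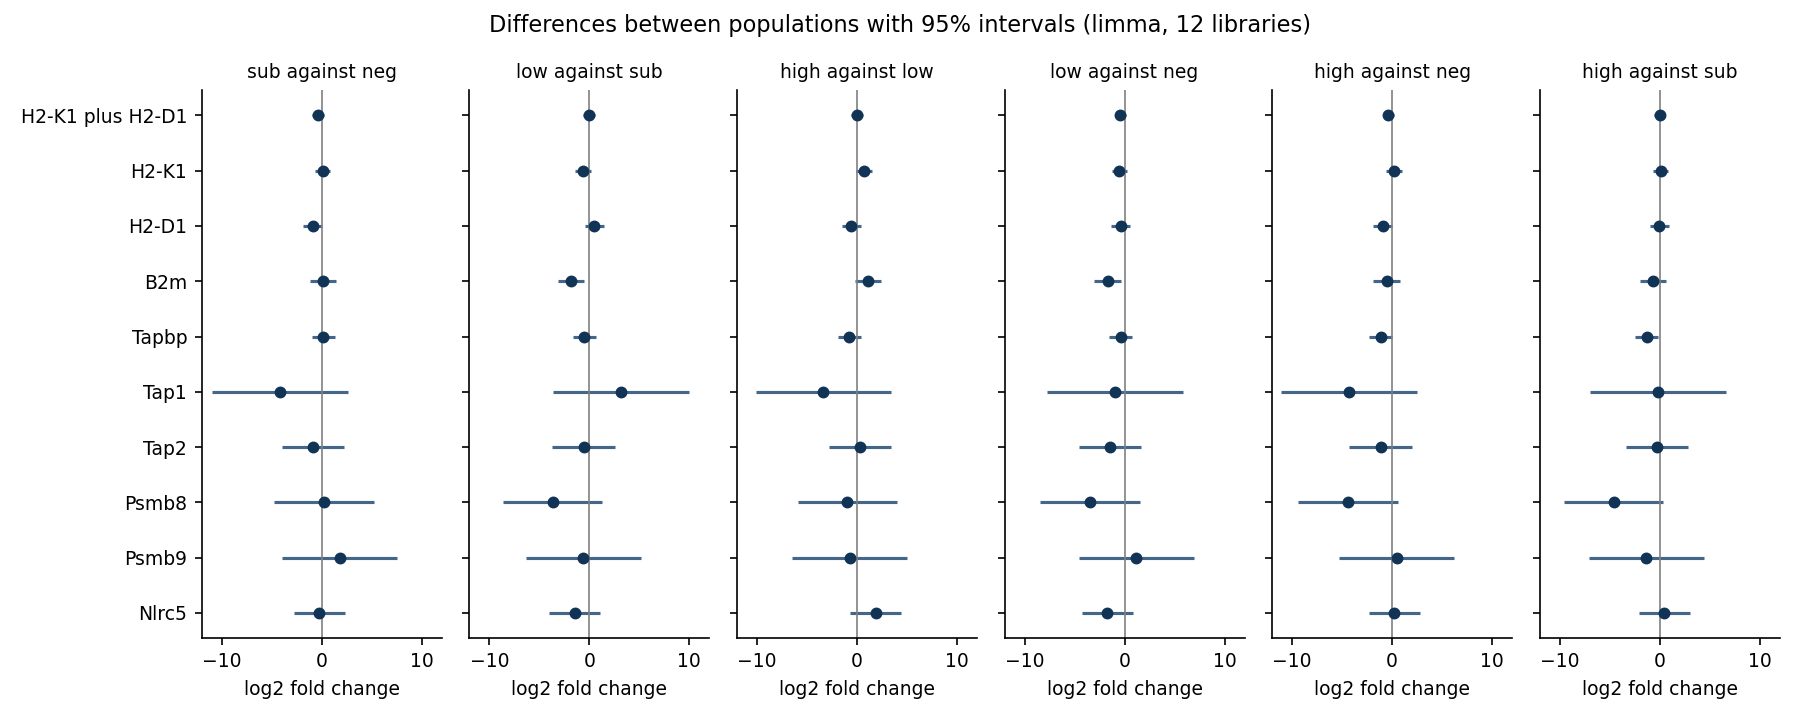
Fitted log2 differences (points) with 95% intervals (lines) for H2-K1 plus H2-D1 and the 9 genes, 1 panel per comparison of 2 populations, from the limma fit to 12 libraries. The summed heavy chains stay between -0.98 and 0.60 in all 6 panels, whereas the Tap1 interval for high against neg runs from -11.07 to 2.50.

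Correlations between the members from library to library were of both signs. Over the 36 pairs of members, Pearson's r of log2(normalised count + 1) across the 12 libraries ranged from -0.593 (H2-D1 and Psmb9) to 0.583 (H2-K1 and Tap2), with a median of 0.017 and 20 positive values. The 12 points share populations and library quality, so these values are a description. Tap1, Psmb8 and Psmb9 had listed zeros and pooled SDs of 4.577, 3.068 and 3.531 on the log2 scale. An r near 0 at such a spread does not show whether members moved together. Among 9613 genes with a mean of at least 100, those most like B2m over the 12 libraries were Wars, the tryptophan tRNA synthetase (r = 0.929), Dennd1c (0.908), Gm11027 (0.896), Camk2g (0.886) and Cep250 (0.884). These were picked as the highest of all these genes, 58 of which had an r above 0.8. In low the SD of each exceeded its mean, for example 19.3 ± 33.4 for Wars. H2-K1 stood at 0.547 (place 812) and H2-D1 at -0.143, where the median over genes was -0.023.

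Other genes of the pathway, taken from lists by role, were mostly without calls. Over the 6 comparisons pooled, 11.1% of the 96768 tests of all genes had an unadjusted p under 0.05 in limma, and limma called 2.05%, edgeR 1.93% and DESeq2 10.4% of them. Of 6 peptide-loading genes, none passed in any of the 6 comparisons, with 3 of 36 tests at an unadjusted p under 0.05 in limma and no call in edgeR or DESeq2. The most abundant, the chaperone Calr, stood at 12096 ± 2841 in neg and 9508 ± 2520 in high (n = 3), a log2 difference of -0.36 ± 0.25. The other 5 had higher fitted values in high than in neg, and the median over the 6 was 0.31. All 3 unadjusted tests were of Canx, the chaperone calnexin, which stood at 4668.5, 2949.8 and 6494.1 in neg and at 12529.8, 11176.9 and 6075.6 in high. Its log2 difference of high from neg was 1.08 ± 0.33 (limma adjusted p = 0.0719). Nor did any of 6 genes of the constitutive catalytic subunits and immunoproteasome partners pass in limma (0 of 36 tests unadjusted, 0 calls in edgeR and 3 in DESeq2). Psme1, a subunit of the proteasome activator, stood at 1725 ± 1252 in neg and 1671 ± 377 in sub, and 2508 ± 298 in low and 1641 ± 694 in high. All 6 had higher fitted values in low than in neg and than in sub (median log2 differences 1.82 and 2.915, where those over all genes were 0). All but Psme1 were listed at 0 in some libraries. Among 12 further class I heavy chains, 9 were tested and none passed in limma (5 of 54 tests unadjusted, 0 calls in edgeR and 1 in DESeq2). H2-Q4, the most abundant of these, stood at 1897 ± 1172 in neg and 3059 ± 800 in sub, and 992 ± 118 in low and 1689 ± 323 in high. Like H2-K1 and H2-D1, the H2-Q genes share sequence with their neighbours.

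Genes that control class I or respond to interferon contained a few calls. In 84 tests of regulators of class I transcription limma called 3, with 9 at an unadjusted p under 0.05, edgeR 2 and DESeq2 3. The shares over the pooled tests of all genes were 2.05% for limma, 11.1% unadjusted, 1.93% for edgeR and 10.4% for DESeq2. Irf1, an interferon-induced activator of class I and immunoproteasome promoters, stood at 6468.3, 8061.7 and 9454.3 in neg, 6116.1, 10690 and 8002.6 in sub, 1156.3, 1870.9 and 3130.6 in low and 2654.8, 5179.6 and 7326.9 in high. All low libraries lay below all neg and sub libraries. Irf1 was lower in low than in neg by a log2 difference of -2.06 ± 0.41 (limma adjusted p = 0.00521) and than in sub by -2.09 ± 0.41 (adjusted p = 0.0243). The first call was lost without neg 2, neg 3, low 1 or low 2 (adjusted p 0.0524 to 0.0743), and the second held only without low 3, high 1 or high 3 (0.0679 to 0.165 in the other 9 leave-outs). Among the other settings, Irf1 in low against neg was lost without the variance trend and with only the 2 populations fitted (0.116 to 0.336), and in low against sub under those and without the filter (0.0709 to 0.501). Of 14 regulators of class I transcription, 1 was called in low against sub (Irf1, where 0.744% of all genes were called) and 2 in low against neg (4.69% of all genes). The latter were Irf1, which was lower, and Rela, an NF-kB subunit, which was higher (log2 difference 5.76 ± 1.60, adjusted p = 0.0433). The Rela call was lost without any 1 library but neg 2 (0.118 to 0.267), and under 6 of 11 other settings (0.0592 to 0.459), namely a pseudocount of 0.5, no filter, no variance trend, only the 2 populations fitted, edgeR and DESeq2. Its log2 difference was 2.99 without neg 3, the library listed at 0, 7.62 without neg 2, 3.46 in edgeR and 3.31 in DESeq2. Rela stood at 163.7, 611.5 and 0 in neg, against 3069.5, 2517.5 and 2085.1 in low.

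Jak1, the kinase shared by both classes of interferon receptor, was the 1 gene called of 7 receptors and kinases, in low against neg and in high against neg (4.69% of all genes were called in each). It stood at 10632.4, 10023.3 and 8728 in neg, 4606.8, 7905.6 and 5480 in sub, 2581.9, 3880.3 and 2677.7 in low and 3053.7, 2599.4 and 4838.3 in high. Every neg library lay above every library of the other populations. The log2 difference was -1.71 ± 0.33 in low against neg (limma adjusted p = 0.00447) and -1.53 ± 0.33 in high against neg (0.00941). The low call held in all 12 leave-outs and was lost without the variance trend (0.41) and with only the 2 populations fitted (0.0517). The high call was lost without neg 1, high 1 or high 2 (0.0507 to 0.061), without the variance trend, with only the 2 populations fitted and in edgeR (0.0651 to 0.475). In 42 tests of the 7 receptors and kinases limma called 2, with 5 at an unadjusted p under 0.05, edgeR 1 and DESeq2 2. Over the pooled tests of all genes these shares were 2.05%, 11.1%, 1.93% and 10.4% in that order.

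Of 19 interferon-stimulated genes, 17 had lower fitted values in low than in neg and 17 in high than in neg, with median log2 differences of -3.10 and -3.22, where the medians over all genes were 0 and 0.13. Of all tested genes, 45.9% had lower fitted values in low than in neg and 42.3% in high than in neg. In limma 2 passed in low against neg (4.69% of all genes did), 2 in high against neg (4.69%) and 1 in low against sub (0.744%), all lower. Over the 6 comparisons limma called 5 of 114 tests in this list, with 30 at an unadjusted p under 0.05, edgeR called 3 and DESeq2 called 19. The shares over the pooled tests of all genes were 2.05% for limma, 11.1% unadjusted, 1.93% for edgeR and 10.4% for DESeq2. Their summed counts were 13656 ± 730 in neg and 12472 ± 2428 in sub, and 3731 ± 1215 in low and 3630 ± 1906 in high (n = 3), with no overlap between the first pair and the last. The summed heavy chains overlapped between all populations.

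Ifit1, which binds foreign RNA, stood at 2128, 2076.6 and 2573.9 in neg, 1611.7, 2402 and 3505.1 in sub, 74.96, 164.8 and 521.9 in low and 1057.4, 761 and 715.5 in high. It was lower in low than in neg by -3.59 ± 0.84 (limma adjusted p = 0.0159), held in all 12 leave-outs and was lost without the variance trend and with only the 2 populations fitted (0.0874 to 0.123). Its size moved with single low libraries, to -2.93 without low 1 and -4.33 without low 3, and was -4.68 under quantile normalisation. Against sub the difference was -3.67 ± 0.84 (limma adjusted p = 0.0472), with -3.02 and -4.41 without the same libraries and -4.78 under quantile normalisation. That call was lost without sub 2, sub 3, low 1, low 2, high 1 or high 2 (0.0505 to 0.11) and under 6 of 11 other settings (0.0518 to 0.369): a pseudocount of 0.5, quantile normalisation, the replicate block, no variance trend, only the 2 populations fitted and edgeR.

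Rsad2, the antiviral protein viperin, stood at 742, 1254.8 and 1183.1 in neg and was listed at 0 in all 3 low libraries (limma adjusted p = 0.0171). Its values were 278.6, 174 and 558.6 in sub and 0, 139.5 and 461.5 in high. Against a floor of 3 reads per library, low was at least 416-fold below neg by counting error alone. A listed 0 is not absence of expression here, so this fold is not a lower bound on the difference between the populations. The Rsad2 call was lost without neg 2, neg 3 or low 3 (0.0522 to 0.0609). In high against neg, Igtp, an interferon-inducible GTPase, and Cxcl10, a chemokine for T cells, were lower. Igtp stood at 311.6, 676.3 and 2064.9 in neg and at 0, 2.021 and 0 in high (adjusted p = 0.0473 in limma). Against the same floor it was at least 336-fold lower by counting error alone, and at least 163-fold lower without neg 3. These folds are likewise not lower bounds on the difference between the populations. Igtp values were 0, 601.1 and 0 in sub and 259, 1510.7 and 1040.5 in low, where they overlapped neg. Cxcl10 stood at 469.1, 2194 and 1766.5 in neg and at 0, 51.54 and 0 in high (adjusted p = 0.0431 in limma). It stood at 935.2, 1762 and 539.6 in sub and at 13.36, 242.1 and 0 in low, where all libraries also lay below neg. The Igtp call held only in the leave-outs of sub 1, sub 2 and sub 3 (0.0756 to 0.163 in the other 9), and that of Cxcl10 only without low 2, low 3 or high 2 (0.0725 to 0.164 in the other 9). Other settings that ended the calls gave 0.0555 to 0.07 for Igtp (a pseudocount of 0.5, no filter, only the 2 populations fitted) and 0.0502 to 0.119 for Cxcl10 (the same 3, no variance trend and edgeR).

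Markers of cell types moved with these groups. Of 10 biliary markers, 7 were called higher in sub than in neg and 8 in low and in high than in neg. Over all tested genes limma called 1.19% in sub against neg and 4.69% in each of low and high against neg, in either direction. Of 10 endothelial markers, 10 were called lower in low and 9 in high than in neg, with summed counts of 146907 to 208731 in neg, 40638 to 52945 in sub, 1008 to 2699 in low and 631 to 1520 in high. Of 10 stellate and mesenchymal markers, 7 were called lower in each of low and high than in neg, with sums of 22309 to 39588 in neg, 28558 to 36857 in sub, 857 to 2704 in low and 682 to 2789 in high. The 10 hepatocyte markers summed to 395 to 871 in neg, 4621 to 7755 in sub, 13834 to 21610 in low and 17019 to 20762 in high, and 2 were called higher in sub, 3 in low and 4 in high than in neg. Most of that sum in low came from Alb (11246 ± 3699) and Ahsg (3270 ± 653), while Apoa1 stood at 411 ± 203 in neg and 82.4 ± 142.7 in low (n = 3 each). The part of these cell-type markers in the differences of Irf1, Jak1 and the interferon-stimulated genes was not tested.

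Leukocytes carry abundant class I, so their markers were examined in all libraries. Ptprc, the pan-leukocyte surface protein CD45, was at 0 in all neg and all sub libraries and at 47.5, 0 and 0 in low and 29.42, 326.4 and 0 in high. The 10 lymphocyte markers summed to 0.691 to 1108 in neg, 0 to 357 in sub, 0 to 105 in low and 0 to 228 in high, and the T cell genes Cd3e and Cd3g were at 0 in all 12. The highest sum, in neg 2, came from the B cell markers Ms4a1 (743.6) and Cd79a (364.4). The 10 pan-leukocyte and dendritic markers summed to 208 to 2382 in neg, 351 to 758 in sub, 32 to 136 in low and 336 to 690 in high. In contrast to Ptprc, Siglech, a marker of plasmacytoid dendritic cells, stood at 661.2, 815.7 and 194.1 in neg and at 305.5, 357.8 and 502.3 in high, and Flt3, a receptor of dendritic cell precursors, at 58.04, 977.1 and 0.9658 in neg. Xcr1, a marker of cross-presenting dendritic cells, stood at 2.764, 362 and 9.658 in neg and at 196.8, 340 and 527.7 in sub. Other markers of the same list went the other way: Cd52, Laptm5, Itgax and Cd53 were at 0 in all 12 libraries. Coro1a was above 0 only in high 2 (1.011), and Itgam stood at 55.27, 227.5 and 2.897 in neg. Siglech and Flt3 were highest in neg 2, the library that also held the highest Psmb8 value and the lowest H2-K1, H2-D1, B2m and Tapbp values of neg, and the part of these markers in the member values was not tested. The 10 Kupffer and macrophage markers summed to 0 to 576 in neg, 427 to 575 in sub, 814 to 1220 in low and 519 to 1526 in high. In low and high most of the last came from Csf1r (670.2, 814 and 1133.4 in low), while C1qa was at 0 in all 12. Csf1r was the 1 Kupffer marker called higher in low and in high than in neg, of 4 tested. In each of these comparisons 4.69% of all genes were called. Library totals ranged from 8775387 to 15535588 recovered reads, and 9039 to 12687 genes were above 0.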

How the data were processed

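Total RNA of 4 sorted populations (3 libraries each) was sequenced with a stranded random-primed kit, per the labels' protocols. The authors deposited normalised counts, which are a signal for every gene in every library. The submitters' processing notes name Salmon, DESeq2 1.26.0 and mm10, with no role or order. Every value above 0 was a whole multiple of 1 step per library (100% of values in each, tolerance 1e-06), so reads (8775387 to 15535588 per library) were recovered. In 2 libraries, sub 3 and high 2, the step lies so close to 1 that this check is weak.

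Values were tested as log2(normalised count + 1) with limma 3.58.1 (R 4.3.3, variance trend) on 12 libraries, population as the only term, a mean of at least 10 (16128 genes), two-sided, with Benjamini-Hochberg adjustment over all genes at 0.05. The summed heavy chains were fitted as an extra row. This scale understates changes of genes low in every library, and where a library is listed at 0 the fitted difference can be larger than the ratio of means or differ from it in sign. Alternatives included edgeR 4.0.16 (quasi-likelihood) and DESeq2 1.42.0 on the recovered reads. Sequences were read from RefSeq windows with pandas 2.3.3 and Biopython 1.88 in Python 3.11.15. All members, the genes past the threshold in each related list (at most 4) and its most abundant gene are named. Canx and the markers named singly (Csf1r, Ptprc and others) were chosen after their values were seen. The members and lists were chosen with earlier results of these data known. Counting limits cover counting error only.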

Additional observations from a re-analysis of the deposited data

How the results depend on the processing

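With 3 libraries a population, the spread of the lower members limits what could be seen: 1374 values of the members and of the heavy-chain sum were computed under up to 23 alternatives for 60 pairs of gene and comparison, and 2 values were called, B2m in low against neg without low 1 and Tapbp in high against sub in DESeq2. In 28 of the 60 pairs the uncalled difference had the other sign under at least 1 alternative. Members called ranged from 0 to 1 in low against neg when 1 library was left out, and DESeq2 called 1 in high against sub. Psmb9 was not in the fit restricted to means of 100 or more, and the test for any difference was not run with only 2 populations.

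Counts of all genes called depended on the tool. DESeq2 called 1698 in sub against neg, 1593 in low against sub, 646 in high against low, 2352 in low against neg, 2257 in high against neg and 1485 in high against sub, where limma called 192, 120, 0, 757, 757 and 159. With only the 2 populations compared, limma called 0, 0, 203, 341 and 8 (sub against neg, low against sub, low against neg, high against neg, high against sub), with 928 and 1206 genes at an unadjusted p under 0.05 in the first pair. Genes called in high against low numbered 1 with no filter, 1 with the replicate block, 22 without the variance trend and 34 in edgeR, and those in low against sub 195 without the variance trend. With 1 library left out at a time, the counts ranged from 149 to 317 in sub against neg, 42 to 170 in low against sub, 0 to 35 in high against low, 465 to 737 in low against neg, 467 to 797 in high against neg and 74 to 245 in high against sub. The cause of these differences was not tested.

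The replicate block gave 180 calls in sub against neg, 83 in low against sub, 1 in high against low, 720 in low against neg, 715 in high against neg and 130 in high against sub. Over 18 pairs of libraries with the same number, deviations from the population means correlated at -0.016 to 0.027. None was over a cut of 0.1, so the main fit did not pair the libraries by number. As a hint the other way, 10 of 12 libraries correlated best with their own number, although each had more partners with other numbers. The deposited columns also share a tag across the populations for each number, which the labels do not explain. Pairing by number was therefore not excluded. The block called no member.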

Other observations

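Molecules related to class I were also measured. Of 5 class I-like genes, 4 were tested and none passed in any of the 6 comparisons in limma (1 of 24 tests unadjusted, 0 calls in edgeR and 1 in DESeq2). Of the pooled tests of all genes limma called 2.05%, with 11.1% unadjusted, edgeR 1.93% and DESeq2 10.4%, so these counts set the list apart from no other genes. Fcgrt, the neonatal Fc receptor that pairs with B2m, stood at 1334.8, 2361.5 and 1504.7 in neg, 157, 967.5 and 611.4 in sub, 93.51, 448.6 and 361.6 in low and 329.7, 908.6 and 139.7 in high, so every neg library lay above every other library. Of all tested genes, 9.68% did not overlap between sub and neg, 16.9% between low and neg and 18.8% between high and neg, in either direction. The log2 difference of Fcgrt between low and neg was -2.76 ± 1.17, unadjusted p = 0.029 and adjusted p = 0.235 in limma.

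Of 10 class II genes, which present peptides to CD4 T cells, 4 passed the filter on low values, as did 16128 of all 54227 genes. None was called by limma in 24 tests (0 at an unadjusted p under 0.05, 0 calls in edgeR and 4 in DESeq2). The shares over the pooled tests of all genes were 2.05% for limma, 11.1% unadjusted, 1.93% for edgeR and 10.4% for DESeq2. Cd74, the class II invariant chain and the most abundant of the class II genes, stood at 0, 393.8 and 237.6 in neg, 56.01, 0 and 85.78 in sub, 403.7, 0 and 623.8 in low and 122.9, 143.5 and 222.1 in high. Its values overlapped between neg and each other population.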
